A study of Mus musculus with 7 samples.

Results

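The milk protein and secretion genes are 10 genes: the caseins Csn1s1, Csn2, Csn1s2a, Csn1s2b and Csn3, the whey protein genes Wap and Lalba, the mucin-like Glycam1, and Xdh and Btn1a1 of milk fat secretion. They were chosen by name, and their probes were found through the RefSeq accession that the array design gives for each probe. Of the 10 genes, 9 had a probe, 1 probe each, among 13968 gene symbols with a probe and 34967 gene probes in all. Wap had no probe matched by accession and is not analysed here.

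RNA came from thoracic mammary glands of 4-week-old female mice, pretreated with hormones and then kept in mammary gland organ culture (MMOC), with 7 CodeLink Mouse Whole Genome arrays read out, 1 for each of 7 groups. Culture began with a growth promotion phase of 10 days, in which the medium held insulin and prolactin at 5 µg/ml each and the steroids aldosterone and hydrocortisone at 1 µg/ml each, and went on with a regression phase of 14 days in insulin alone. The WT groups were C57 glands after 10 days without DMBA, after 24 days without DMBA, and after 24 days with DMBA, a polycyclic aromatic hydrocarbon carcinogen given at 2 µg/ml on Day 3 for 24 h. The αERKO and βERKO groups were glands of mice without ERα (Esr1) or without ERβ (Esr2), the 2 estrogen receptors, in a C57BL6/129SV strain background, after 24 days of culture; the protocol gives DMBA, but the titles of both knockout arrays do not name it. The last groups were BALB/c glands after 24 days of culture without and with vitamin D5, for which the titles state neither DMBA nor a dose. The protocol of age, pretreatment and culture names C57, αERKO and βERKO mice and not BALB/c. The sample descriptions give the pretreatment as 9 days of estrogen (1 µg) with progesterone (1 mg), while the study states that the WT, αERKO and βERKO glands put on arrays came from mice given EGF (25 ng) with progesterone for 5 days. The study states that RNA of 5 mice was pooled for its WT, αERKO and βERKO groups, so such an array shows no spread between animals. It does not describe the WT arrays without DMBA or the BALB/c arrays. WT controls were C57, so genotype and strain background cannot be told apart. The study's methods describe the αERKO glands as free of mammary alveolar lesions and say that none were taken for molecular analysis, while elsewhere the study describes the αERKO RNA on the array as that of lesion-free glands.

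Caseins and the whey proteins are the main proteins of milk and are made by alveolar epithelium in late pregnancy and lactation. Prolactin acts through its receptor and the transcription factor STAT5, and glucocorticoid through the glucocorticoid receptor, and together with insulin they switch on casein genes in cultured mammary tissue. The casein proteins carry calcium phosphate in micelles, of which κ-casein coats the surface, while α-lactalbumin is the regulatory subunit of lactose synthase and Xdh and Btn1a1 serve the budding of fat droplets from the cell.

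The sequences upstream of member genes with wide ranges between arrays are shown for the letters of the motif that STAT5 reads. RefSeq's promoter table (GRCm38.p6) listed 6 of the 10 genes, namely Csn1s1, Csn2, Csn1s2a, Wap, Lalba and Glycam1. The 160 bases that end just before the start site are given 5′ to 3′ in the direction of the gene for the 3 genes with a match to TTCNNNGAA, the STAT5 motif, which reads the same on both strands, and for Csn1s2a, a casein without one; capitals mark the match.
Csn1s1: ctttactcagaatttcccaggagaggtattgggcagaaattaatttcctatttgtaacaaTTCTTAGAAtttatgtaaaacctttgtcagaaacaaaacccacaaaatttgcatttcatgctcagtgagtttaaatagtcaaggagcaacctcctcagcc
Csn2: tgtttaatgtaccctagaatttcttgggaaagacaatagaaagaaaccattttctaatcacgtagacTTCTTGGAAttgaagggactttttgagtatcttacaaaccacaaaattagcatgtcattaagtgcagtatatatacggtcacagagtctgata
Csn1s2a: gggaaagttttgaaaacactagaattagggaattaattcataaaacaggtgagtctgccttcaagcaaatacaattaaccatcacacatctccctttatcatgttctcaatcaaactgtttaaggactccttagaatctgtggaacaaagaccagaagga
Glycam1: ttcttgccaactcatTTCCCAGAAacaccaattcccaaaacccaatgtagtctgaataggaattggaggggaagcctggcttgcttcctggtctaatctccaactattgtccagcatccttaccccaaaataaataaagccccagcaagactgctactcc
These windows lie at chr5:87666048-87666207 on the plus strand for Csn1s1, chr5:87699426-87699585 on the minus strand for Csn2, chr5:87774290-87774449 on the plus strand for Csn1s2a, and chr15:103565082-103565241 on the minus strand for Glycam1. The first base of the match lies 100 bases before the start of Csn1s1, 93 bases before that of Csn2 and 145 bases before that of Glycam1. Within 250 bases upstream, TTCNNNGAA was found in 3 of the 6 promoters listed (Csn1s1, Csn2 and Glycam1), against 7.02% of all 32851 promoters of the same length. TGTTCT, the repeat unit of the glucocorticoid response element, searched on both strands, was found in Csn1s2a, 59 bases before the start, and in no other of the 6; 16.1% of all promoters held it. No match of one motif overlapped a match of the other. A match is a run of letters in this window and not a measured binding site.

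Each value below is a log2 level, the log2 of a probe's intensity over the median intensity of all gene probes on its array, so that 0 is the middle of the array and 1 unit is a doubling. Levels of different genes come from different probes and were compared across arrays only. A spot is called good where the scanner software flagged it so, which held for 68.4% to 74.2% of gene probes, and the dimmest good spot of an array lay between -1.47 and -1.88. With 1 array per group no test was possible and no p-value is given; a gene is called higher or lower where its levels differ over 2-fold between 2 arrays and its spot is good on at least 1 of them. The measure of error at hand came from pairs of probes that share an accession. The SD of a single probe's log2 ratio within such pairs was 0.23 to 0.61 over the 7 comparisons. It is called the SD between probes below, and it covers probes and not animals. In whole glands, fewer cells of a type and less RNA per cell cannot be told apart. The knockout labels could be checked only in part: the Esr1 probe was not good on the αERKO array (-3.76), but it was good on only 2 arrays, WT with DMBA (-1.02) and BALB/c with vitamin D5 (-0.74). The Esr2 probe was brightest on the array labelled βERKO (0.87) and good on only 1 other, WT at 24 days without DMBA (-0.55), so that array is called the array labelled βERKO throughout; which part of Esr2 the probe reads is not given in the sources used here. The αERKO array also stood apart in its tissue markers, as given beside the genotype comparisons.

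Csn2, which encodes β-casein, ran from 5.79 down to spots that were not good. It lay at 5.79 in WT glands with DMBA and at 5.39 in WT glands at 24 days without it (called WT glands at 24 days from here), at 0.40 in BALB/c glands with vitamin D5 and at -1.34 in WT glands at 10 days. Its spot was not good on the αERKO array (-2.01), the array labelled βERKO (-1.99) or the BALB/c array (-1.60). The 2 WT arrays at 24 days thus stood well above all 5 others, and on 3 arrays Csn2 had only an upper bound.

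Csn1s1, which encodes αs1-casein, was good on all 7 arrays and ranged over 7.03 on the log2 scale. Its level was 6.51 in BALB/c glands with vitamin D5, 4.47 in WT glands with DMBA, 4.09 in WT glands at 10 days, 4.04 in BALB/c glands and 3.39 in WT glands at 24 days. Its lowest levels were 0.92 on the array labelled βERKO and -0.52 in αERKO glands. The knockout arrays were the lowest for Csn1s1. For Csn2 their spots and that of the BALB/c array were not good, so these arrays cannot be ranked for it. The WT 10-day and BALB/c arrays, low or not good for Csn2, were as high for Csn1s1 as the WT arrays at 24 days.

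Csn1s2a, an αs2-casein gene, lay at 4.60 in WT glands with DMBA, 3.43 in WT glands at 24 days, 2.12 in BALB/c glands with vitamin D5 and 1.43 in BALB/c glands. It lay at 0.72 on the array labelled βERKO, 0.70 in WT glands at 10 days and -0.23 on the αERKO array, with all 7 spots good. Its order followed that of Csn2 at the top, with both WT arrays at 24 days above the rest.

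Csn3, which encodes κ-casein, was well above the array median on every array. It lay at 8.05 in WT glands at 24 days, 8.01 in WT glands with DMBA and 7.77 on the array labelled βERKO, values closer to each other than the SD between probes of any comparison of these arrays (lowest 0.32). It lay at 6.79 in BALB/c glands with vitamin D5, 5.96 on the αERKO array, 5.89 in WT glands at 10 days and 5.21 in BALB/c glands. Csn3 is the casein whose level on the array labelled βERKO stood with the WT arrays at 24 days. Csn1s2b, the other αs2-casein gene, lay between 1.08 and 1.57 on all 7 arrays, a range of 0.49, and was over 2-fold apart in no comparison.

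Lalba, which encodes α-lactalbumin, ranked the arrays in another order than the caseins. Its level was 3.82 in BALB/c glands with vitamin D5, 2.82 in BALB/c glands, 2.45 in WT glands at 10 days, 1.72 on the array labelled βERKO, 1.62 in WT glands at 24 days and 0.11 in WT glands with DMBA. On the αERKO array its spot was not good (-3.58). WT glands with DMBA, highest for Csn2 and Csn1s2a, were thus the lowest of the 6 arrays on which Lalba was good.

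Glycam1, a mucin-like glycoprotein of milk that high endothelial venules of lymph nodes also make, lay at 6.17 on the αERKO array and 1.63 in WT glands with DMBA. It lay at -0.26 on the array labelled βERKO, -0.45 in BALB/c glands, -0.53 in WT glands at 10 days, -0.56 in WT glands at 24 days and -1.28 in BALB/c glands with vitamin D5. The αERKO array, lowest for Csn1s1, Csn1s2a and Lalba, was the highest for Glycam1.

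The 2 genes of fat droplet secretion stayed under 2-fold in all 7 comparisons. Xdh, whose product xanthine oxidoreductase binds butyrophilin at the apical membrane, lay at 4.45 on the array labelled βERKO, 3.93 in WT glands at 24 days, 3.65 in WT glands at 10 days and 3.57 on the αERKO array. It lay at 3.52 in WT glands with DMBA, 3.43 in BALB/c glands with vitamin D5 and 2.94 in BALB/c glands. Btn1a1, which encodes butyrophilin, lay between 5.47 and 5.78 on all 7 arrays, a 1.24-fold range.

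**Figure D1:**
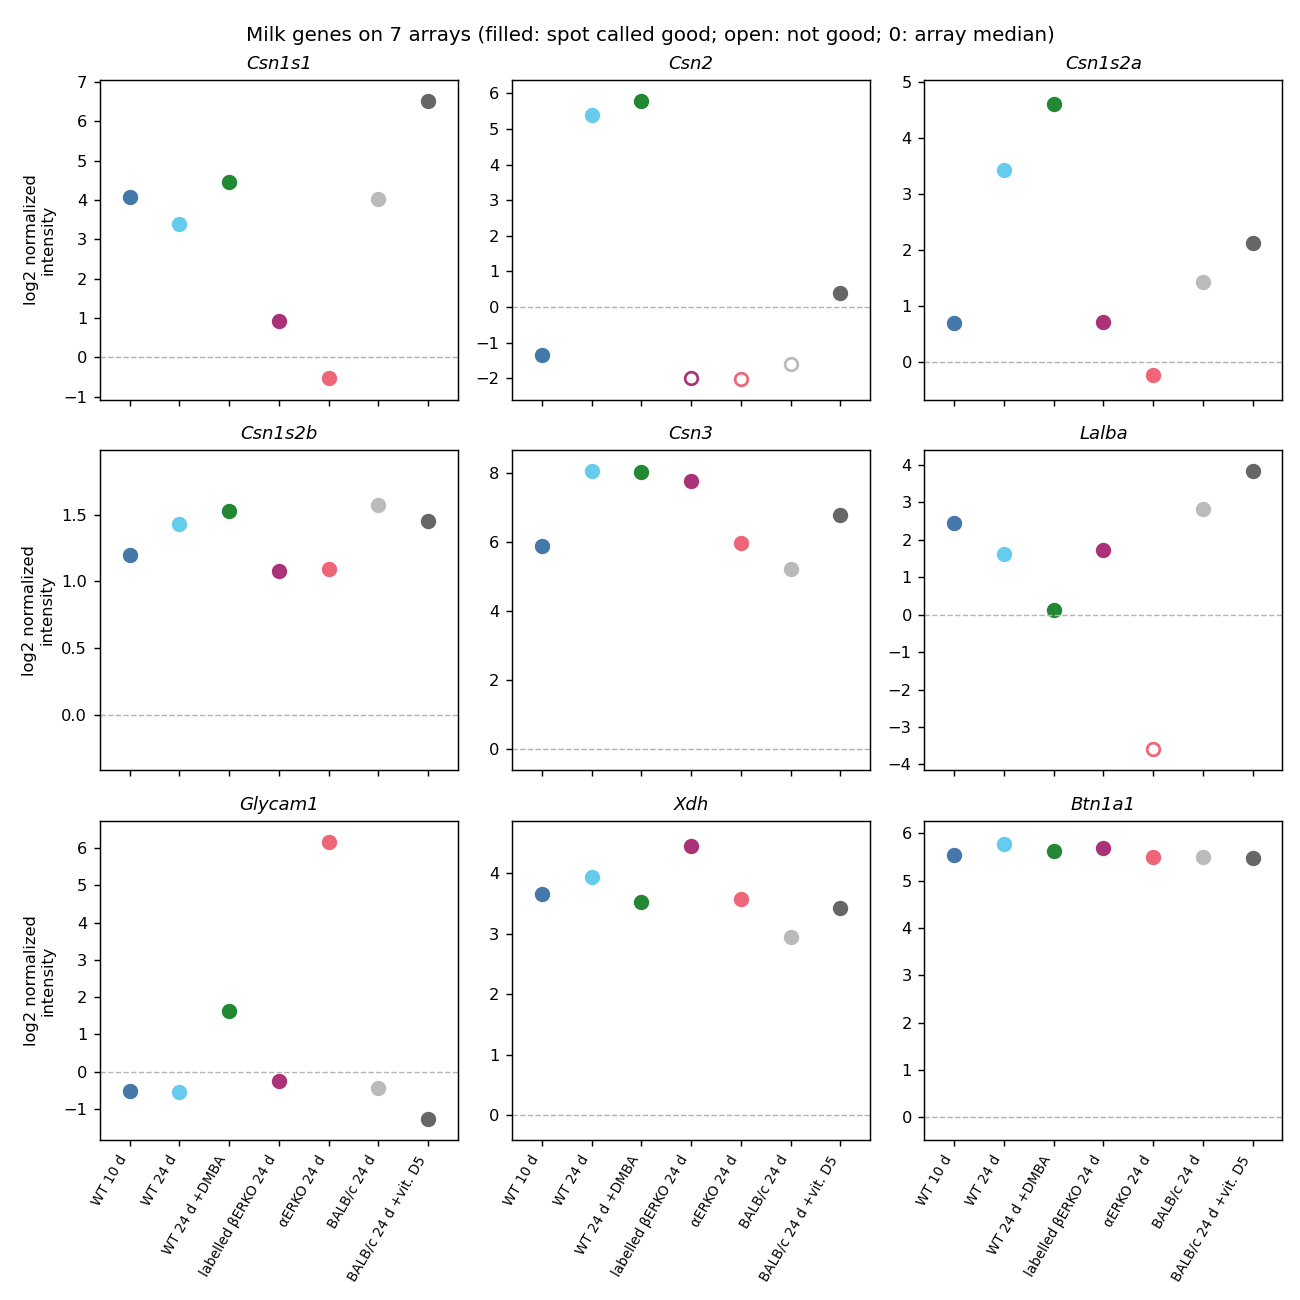
Log2 normalized intensity of the 9 milk genes with a probe (y axes, 0 is the array median, scales differ between panels) on 7 arrays (x axes, 1 point per array, so there are no error bars); filled points are spots called good, open points spots not good. Csn2 stands at 5.39 and 5.79 in the WT glands at 24 days and at or below 0.40 elsewhere, and Glycam1 at 6.17 on the αERKO array alone stands above 1.63.

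The 5 caseins lie in 1 cluster on chromosome 5, in the RefSeq gene order Csn1s1, Csn2, Csn1s2a, Csn1s2b, Prr27, Odam, BC037156 and Csn3. Adjacent genes were alike in some cases and apart in others. Csn2 and Csn1s2a, adjacent, were both highest on the WT arrays at 24 days. Csn1s1 and Csn2 are also adjacent, and in BALB/c glands the spot of Csn1s1 was at 4.04 while that of Csn2 was not good. Csn1s2a, with a 28.3-fold range, is followed by Csn1s2b, with a 1.4-fold range. Of the 3 other genes in the interval, Prr27 was good on 2 arrays and Odam and BC037156 had no probe. The mean log2 level of the 5 caseins was 4.88 in WT glands with DMBA, 4.34 in WT glands at 24 days, 3.46 in BALB/c glands with vitamin D5, 2.13 in BALB/c glands, 2.11 in WT glands at 10 days, 1.70 on the array labelled βERKO and 0.86 in αERKO glands. The summed level of the 9 milk genes ran from 120 times the array median in BALB/c glands to 428 in WT glands with DMBA. This sum is weighted to the brightest probes. Csn3 gave 37.1 of the 120 and 259 of the 428, Btn1a1 gave 45 and 49.1, and Glycam1 gave 72.2 of the 195 on the αERKO array.

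**Figure D2:**
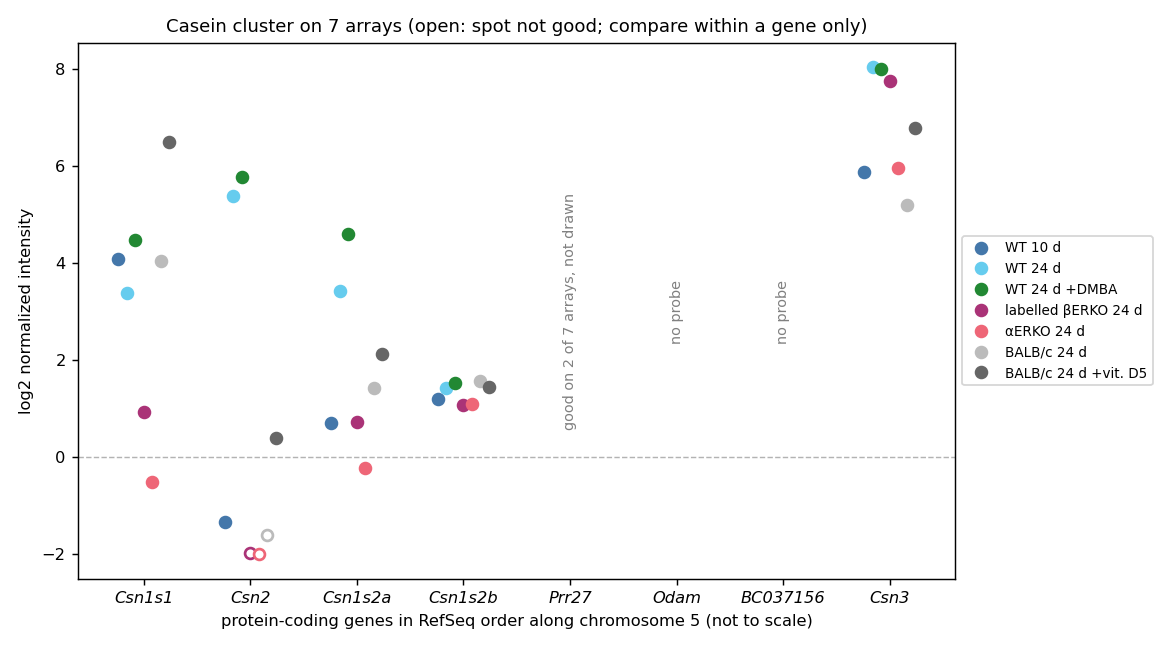
Log2 normalized intensity (y axis, 0 is the array median) of the caseins in RefSeq gene order along chromosome 5 (x axis, not to scale), with 1 point per array and open points where the spot was not good; heights can be compared within a gene only. The points of Csn1s1 spread over 7.03 and those of Csn2 run from 5.79 down to spots that were not good, while those of Csn1s2b, in the same cluster, span 0.49.

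The first comparison asks how milk genes of WT glands without DMBA differed between the end of growth promotion and the end of regression. Of the 9 genes, 3 were over 2-fold higher at 24 days and 0 over 2-fold lower, where 6.05% of all probes tested were higher and 6.34% lower. Csn2 went from -1.34 to 5.39, a 106-fold higher value at 24 days, after 14 days in insulin without added prolactin or hydrocortisone. After another background correction (normexp), which shrinks ratios of dim spots, its log2 ratio was 4.78 in place of 6.73. Csn1s2a was 6.65-fold higher and Csn3 4.49-fold higher. The remaining caseins were not called: Csn1s1 had a log2 ratio of -0.70 and Csn1s2b of 0.23. Lalba also stayed under 2-fold, at -0.83, and Xdh, Btn1a1 and Glycam1 lay between -0.03 and 0.28. The median over the milk genes was 0.24, beside 0.09 over all probes tested, and the SD between probes was 0.23. Luminal epithelial markers (keratins, claudins, E-cadherin and others, 18 with a probe) summed to 1736 times the array median at 10 days and 1927 at 24 days. Adipocyte markers summed to 324 and 1130, with 11 of 13 over 2-fold higher at 24 days and 0 lower. Macrophage markers summed to 185 and 256, with 5 of 9 higher, and basal epithelial markers to 864 and 351, with 5 of 10 tested lower and 2 higher. The part of these shifts in cell markers in the milk gene values was not tested.

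With against without DMBA, in WT glands at 24 days, 3 milk genes were over 2-fold higher and 1 was lower, where 10.1% of all probes tested were higher and 8.46% lower. Glycam1 was 4.55-fold higher with DMBA, from -0.56 to 1.63. Csn1s2a was 2.24-fold and Csn1s1 2.11-fold higher, just past the threshold. Csn2 (log2 ratio 0.40) and Csn3 (-0.04) were not called. Lalba was 2.85-fold lower, from 1.62 to 0.11. After normexp, Lalba was at -0.91 and no longer called, and Glycam1 was at 1.25 in place of 2.19. Luminal markers summed to 993 times the array median with DMBA and 1927 without, with 8 of 17 tested lower and 1 higher. Macrophage markers summed to 727 and 256, with 8 of 9 higher, and adipocyte markers to 2121 and 1130, with 9 of 13 higher. Lymph node markers, of a tissue that makes Glycam1 too, summed to 21.4 and 20, with 5 of 15 tested higher and 1 lower. The 5 were Madcam1, Chst4, Fut7, Cxcl13 and Ccl19, of which all but Ccl19 were not good without DMBA. Madcam1 was at -0.12 with DMBA, its highest level on any array. The part of these marker lists in the milk gene values was not tested.

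In αERKO glands against WT glands with DMBA, 5 milk genes were over 2-fold lower and 1 was higher, where 14.1% of all probes tested were lower and 11.7% higher. The 5 that were lower are 4 caseins and Lalba. Csn2 was at least 153-fold lower, since its spot was not good on the αERKO array. Csn1s1 was 31.8-fold lower, Csn1s2a 28.3-fold and Csn3 4.15-fold. The bound rests on the background correction: after normexp the log2 ratios were -5.34 for Csn2, -3.71 for Csn1s1 and -3.72 for Csn1s2a, still the 3 lowest of the caseins. Lalba was at least 2.98-fold lower, a bound that the dim level in WT glands with DMBA keeps small, and it was not called after normexp (log2 ratio -0.76). Glycam1 was 23.4-fold higher in αERKO glands. Csn1s2b (-0.44), Btn1a1 (-0.13) and Xdh (0.05) were not called. The median of the milk genes was -2.05, beside -0.09 over all probes tested, with an SD between probes of 0.61. Against WT glands without DMBA the counts were also 5 lower and 1 higher, where 20.9% of all probes tested were lower and 15.4% higher.

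Several tissue marker lists also differed between the αERKO array and WT glands, some of them by the WT array used. Luminal markers summed to 920 times the array median, beside 993 in WT glands with DMBA, and 6 of 17 tested were lower and 1 higher. Ly6d, at 7.31 beside 0.59 in WT glands with DMBA, raised the αERKO sum. The median log2 level of the luminal list was 3.74, beside 4.84 in WT glands with DMBA. Against WT glands without DMBA, which summed to 1927, 10 of 17 were lower and 1 higher. Skeletal muscle markers summed to 2700, beside 14.4 to 57.9 on the other 6 arrays, with all 14 measured genes higher than in WT glands with DMBA. Adipocyte markers summed to 4080, the highest of the 7 arrays, beside 2121 in WT glands with DMBA. Lymph node markers, a list of 19 genes that includes Ccl19 and Ccl21a, the chemokines of T cell zones, and Cr2, a receptor of B cells and follicular dendritic cells, summed to 186, beside 18.3 to 23.1 on the other 6 arrays. Of that list 18 of 19 spots were good on the αERKO array, and 13 of 18 tested were higher than in WT glands with DMBA. Ccl19 was at 6.09, beside 0.08 in WT glands with DMBA, and Cr2 at 3.02, beside -0.87. Macrophage markers summed to 175, beside 727 in WT glands with DMBA (8 of 9 lower) and 256 without (3 of 9 lower, 2 higher), and basal epithelial markers to 207 beside 400 with DMBA (5 of 11 lower) and 351 without (4 lower, 4 higher). Madcam1, an addressin of high endothelial venules, was at -0.44, beside -0.12 in WT glands with DMBA, and Cd3e was good on none of the 7 arrays. The lymph node list thus moved with Glycam1 on the αERKO array. In WT glands with DMBA, where Glycam1 was at 1.63, the list summed to 21.4. That sum is weighted to Cd79a, its brightest gene there, which lay between 3.05 and 3.41 on all 7 arrays. Of 15 genes tested, 5 were over 2-fold higher than without DMBA, Madcam1 among them, and 1 was lower. Of all probes tested, 10.1% were higher and 8.46% lower. The part of muscle, fat and lymph node RNA in the milk gene values was not tested.

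On the array labelled βERKO against WT glands with DMBA, 4 milk genes were over 2-fold lower and 1 was higher, where 8.37% of all probes tested were lower and 6.96% higher. Csn2 was at least 170-fold lower, again with a spot that was not good. Csn1s2a was 14.7-fold lower and Csn1s1 11.7-fold lower. After normexp the log2 ratios were -5.37 for Csn2, -3.27 for Csn1s2a and -3.03 for Csn1s1. Csn3 was not called (log2 ratio -0.25), and nor was Csn1s2b (-0.45). Glycam1 was 3.69-fold lower and Lalba 3.05-fold higher, while Xdh, at 0.93, stayed just under 2-fold. The calls of Glycam1 and Lalba depended on the WT array used: against WT glands without DMBA, 3 milk genes were lower (Csn2, at least 129-fold; Csn1s2a, 6.57-fold; Csn1s1, 5.53-fold) and 0 were higher, with Glycam1 at 0.30 and Lalba at 0.10, where 6.9% of all probes tested were lower and 8.24% higher. After normexp, Lalba against WT with DMBA was at 0.95 and not called. Luminal markers summed to 1504 on the array labelled βERKO, above the 993 of WT glands with DMBA, with 3 of 17 tested higher and 2 lower, and macrophage markers to 190 beside 727, with 6 of 9 lower. Skeletal muscle markers summed to 57.9 beside 17.5, with 6 of 10 tested higher and 1 lower. Adipocyte markers summed to 1736 beside 2121, with 4 of 13 lower and 0 higher, but against WT glands without DMBA (1130) 6 of 13 were higher and 0 lower. The part of these shifts in the milk gene values was not tested.

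Between the knockout arrays, αERKO against the array labelled βERKO, 3 milk genes were lower in αERKO glands and 1 was higher of 8 tested, where 16.6% of all probes tested were lower and 13.5% higher. Csn3 was 3.5-fold lower in αERKO glands and Lalba at least 9.1-fold lower. The bound of Lalba rests on the background correction. Against WT glands with DMBA, normexp took its log2 ratio from -3.68 to -0.76 in αERKO glands and from 1.61 to 0.95 on the array labelled βERKO. Csn1s1 was 2.71-fold lower, a call that normexp removed (log2 ratio -0.68). Glycam1 was 86.3-fold higher in αERKO glands (log2 ratio 6.43, and 5.07 after normexp). Csn1s2a (-0.94) and Xdh (-0.88) stayed under 2-fold, and Csn1s2b (0.01) and Btn1a1 (-0.20) were level. Csn2 was good on neither array, so the knockouts could not be compared for it. Luminal markers summed to 920 in αERKO glands and 1504 on the array labelled βERKO, with 9 of 17 tested lower. The comparisons of each knockout with WT share the WT array with DMBA, so their values are given side by side and not as independent results.

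BALB/c against WT glands without DMBA, both at 24 days, gave 3 milk genes over 2-fold lower and 1 higher, where 9.33% of all probes tested were lower and 9.17% higher. Csn2 was at least 127-fold lower in BALB/c glands, and its log2 ratio after normexp was -4.87. Csn3 was 7.18-fold lower, the largest difference of Csn3 in the 7 comparisons, and Csn1s2a was 4-fold lower. Csn1s1 was not called (log2 ratio 0.65), so that adjacent casein genes differed in this comparison by their call. Lalba was 2.3-fold higher in BALB/c glands and Xdh, at -0.99, stayed just under 2-fold. The median of the milk genes was -0.29, and 0.04 after quantile normalization, so no common direction of the 9 genes can be read from it. Against WT glands with DMBA, 4 milk genes were lower, Glycam1 being the addition (4.23-fold), and 1 was higher, where 11.3% of all probes tested were lower and 10.9% higher. Luminal markers summed to 1463 in BALB/c glands and 1927 in WT glands, and adipocyte markers to 279 and 1130, with 11 of 13 lower and 0 higher. Macrophage markers summed to 127 and 256, with 7 of 9 lower and 1 higher, and basal epithelial markers to 719 and 351, with 4 of 11 higher and 0 lower. The part of these shifts in the milk gene values was not tested.

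With against without vitamin D5, in BALB/c glands at 24 days, 4 milk genes were over 2-fold higher and 0 lower, where 5.12% of all probes tested were higher and 7.06% lower. Csn1s1 was 5.57-fold higher, from 4.04 to 6.51, its highest level on any array. Csn3 was 2.99-fold higher and Csn2 at least 4.01-fold higher, from a spot that was not good to 0.40. Lalba was 2.01-fold higher, at the threshold. Csn1s2a was at 0.69, Xdh at 0.48 and Glycam1 at -0.83, all under 2-fold. The median of the milk genes was 0.69, beside 0.09 over all probes tested, with an SD between probes of 0.23. After normexp the count was 2, with Csn2 at 0.78 and Lalba at 0.93, and Lalba was also under 2-fold after quantile normalization (0.85) and scaling to the 75th percentile (0.88). Luminal markers summed to 1694 with vitamin D5 and 1463 without, with 3 of 17 tested higher and 0 lower.

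**Figure D3:**
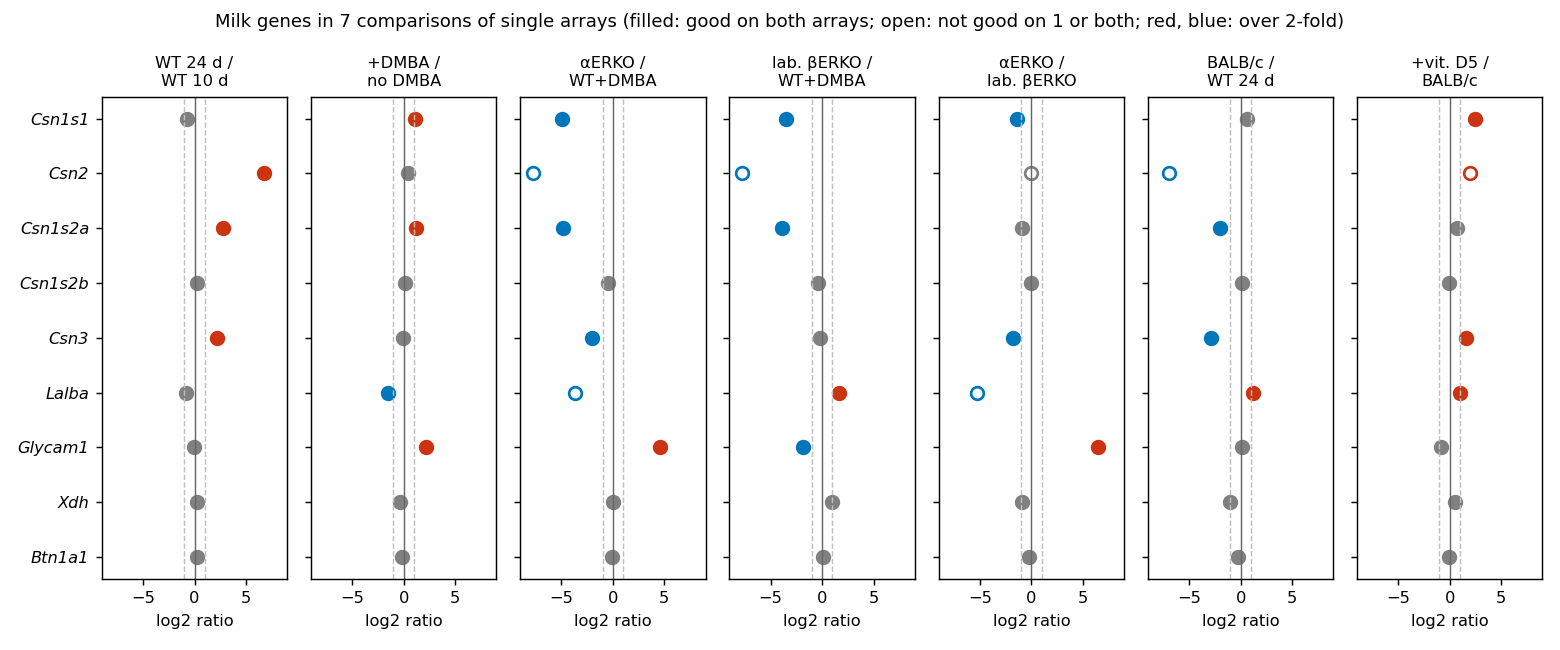
Log2 ratio of each milk gene (x axes) in 7 comparisons of single arrays (panels, first array over second), with dashed lines at 2-fold; red and blue points are over 2-fold higher or lower, and open points were not good on 1 or both arrays, where the text gives a bound for a called gene. The caseins Csn1s1, Csn2 and Csn1s2a lie to the left in both comparisons of a knockout with WT, while Btn1a1 and Csn1s2b lie between the dashed lines in all 7.

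The hormone pathway that drives milk genes was followed through a list of 25 genes of prolactin and glucocorticoid signalling, 21 of them with a probe. Over 24 against 10 days in WT glands 5 were over 2-fold higher and 0 lower, where 6.05% of all probes tested were higher and 6.34% lower. With DMBA, 3 were higher and 1 lower, where 10.1% of all probes were higher and 8.46% lower. In αERKO against WT with DMBA 2 were higher and 5 lower (11.7% and 14.1% of all probes), and against WT without DMBA 1 was higher and 8 lower (15.4% and 20.9%). For the array labelled βERKO against WT with DMBA 0 were higher and 4 lower (6.96% and 8.37%), and between the knockouts 3 were higher and 4 lower (13.5% and 16.6%). In BALB/c against WT 0 were higher and 6 lower (9.17% and 9.33%), and with vitamin D5 1 was higher and 0 lower (5.12% and 7.06%). Some of these counts, such as those with DMBA, between the knockouts and with vitamin D5, are near what these shares give for a list of this size and are no result about the list. Prlr, Stat5a and Nr3c1 stayed under 2-fold in all 7 comparisons, some of them just under it. Prlr was at 2.31 in WT glands at 24 days, beside 1.33 at 10 days. Stat5a was at 3.83 in WT glands with DMBA, beside 2.89 without DMBA and 2.85 on the αERKO array. Prlr, the prolactin receptor, lay between 1.33 in WT glands at 10 days and 2.86 in WT glands with DMBA, and 2.79 on the αERKO array was its second highest level. Stat5a, which carries the prolactin signal, lay between 2.51 and 3.83, again lowest in WT glands at 10 days and highest in WT glands with DMBA. Nr3c1, the glucocorticoid receptor, lay between -0.82 and 0.48.

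Of the glucocorticoid targets on the list, Per1, a clock gene, lay between -0.59 and 0.08 on the 7 arrays and was over 2-fold apart in no comparison. Fkbp5, a co-chaperone of steroid receptors and a standard glucocorticoid target, lay at 3.44 in WT glands with DMBA and 2.54 in WT glands at 24 days, and between -0.31 and 0.33 on the other 5 arrays. It thus separated the same 2 arrays from the rest as Csn2 did. Tsc22d3, another glucocorticoid target, lay at 7.06 in WT glands with DMBA, 6.54 on the αERKO array and 5.70 in WT glands at 24 days, and between 4.11 and 4.76 on the others. On the αERKO array Tsc22d3 was therefore high where Fkbp5 and Csn2 were low. Sgk1, a kinase induced by glucocorticoid and mineralocorticoid, was 2.96-fold higher at 24 than at 10 days in WT glands, and Socs2, a feedback inhibitor of prolactin and growth hormone signalling, 3.44-fold higher.

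Elf5, the transcription factor of alveolar cell fate that works with STAT5 on milk genes, lay between 4.69 and 6.01 on 6 arrays and at 1.88 on the αERKO array. It was 7-fold lower in αERKO glands than in WT glands with DMBA and 9.31-fold lower than in the glands labelled βERKO. Cebpb, a transcription factor needed for alveolar differentiation, was 4.42-fold lower in αERKO glands than in WT with DMBA (2.88 and 5.03). On the array labelled βERKO, where Csn1s1, Csn2 and Csn1s2a were low too, Elf5 was at 5.10 and Cebpb at 5.43. Tnfsf11 (RANKL), which progesterone and prolactin induce in luminal cells, was 15.4-fold lower in αERKO glands than in WT glands with DMBA (1.37 and 5.32). It lay at 2.45 in WT glands at 24 days without DMBA and at -1.38 in BALB/c glands, and it was not good on the array labelled βERKO, in WT glands at 10 days or in BALB/c glands with vitamin D5.

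**Figure D4:**
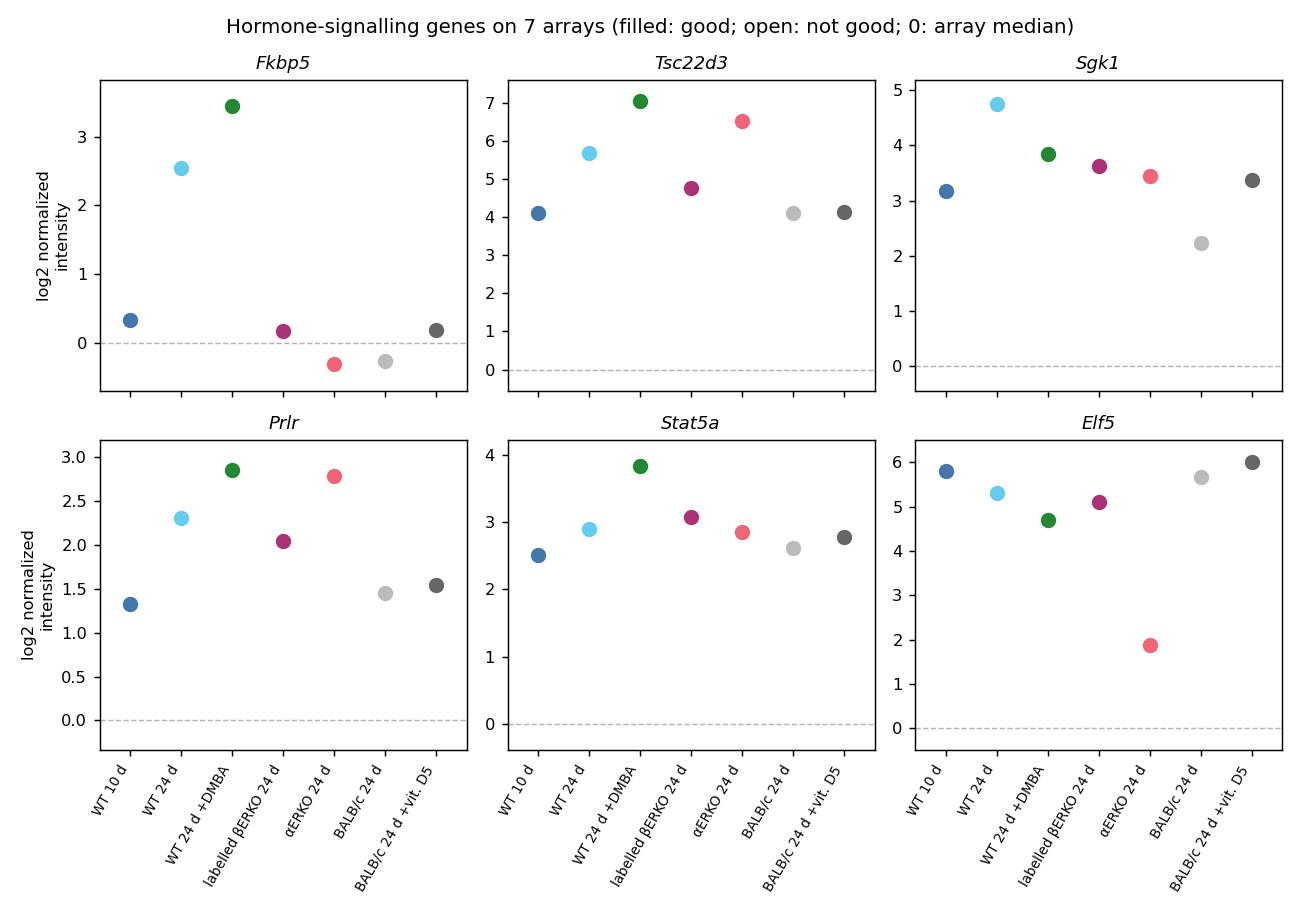
Log2 normalized intensity (y axes, 0 is the array median) of Fkbp5, Tsc22d3 and Sgk1, glucocorticoid targets, and of Prlr, Stat5a and Elf5 on 7 arrays (x axes, 1 point per array, no error bars); all spots shown were good. Fkbp5 stands at 2.54 and 3.44 in the WT glands at 24 days and at or below 0.33 elsewhere, and Elf5 is low on the αERKO array alone, at 1.88.

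Other secretory functions were followed through lists that hold none of the 10 genes. Of other secreted milk proteins, 12 of 17 tested were over 2-fold lower in αERKO glands than in WT glands with DMBA and 3 higher. Of all probes tested, 14.1% were lower and 11.7% higher. Against WT glands without DMBA 10 of 16 were lower and 2 higher, where 20.9% of all probes tested were lower and 15.4% higher. The counts of higher genes are near these shares. Against WT with DMBA, Spp1, the secreted phosphoprotein osteopontin, was 19.2-fold lower and Muc1, an apical mucin, 7.16-fold lower. On the array labelled βERKO, 5 of 16 were lower than in WT with DMBA and 2 higher, with Spp1 3.74-fold lower. Of all probes tested there, 8.37% were lower and 6.96% higher. Of 14 genes of the milk fat globule and of lipid synthesis, 4 were lower and 2 higher in αERKO glands against WT with DMBA, where 14.1% of all probes tested were lower and 11.7% higher. Against WT without DMBA 4 were lower and 6 higher, where 20.9% of all probes tested were lower and 15.4% higher. The balance of this list thus depended on the WT array used. Against WT with DMBA, Plin2, the coat protein of fat droplets, was 5.02-fold lower, and Fabp3, a fatty acid carrier also abundant in muscle, 19.2-fold higher. With DMBA, 8 of these 14 were higher and 2 lower in WT glands, where 10.1% of all probes tested were higher and 8.46% lower. Thrsp, a regulator of lipogenesis, was 6.03-fold and Fasn, fatty acid synthase, 4.44-fold higher, and adipocyte markers were higher as well. For lactose synthesis, where α-lactalbumin acts, 2 of 11 genes were lower and 0 higher both in αERKO glands against WT with DMBA and with DMBA in WT glands. These counts are near the 14.1% and 8.46% of all probes that were lower. Slc2a1, the glucose transporter GLUT1, was 2.68-fold and 2.35-fold lower. The other gene lower in αERKO glands was Hk1, at 1.33 beside 3.86 in WT with DMBA. Against WT without DMBA 4 of 11 were lower and 1 higher in αERKO glands, beside 20.9% and 15.4% of all probes. Against the array labelled βERKO 3 were lower and 0 higher, beside 16.6% and 13.5%. B4galt1, the enzyme that α-lactalbumin directs to lactose, was under 2-fold apart in all 7 comparisons.

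Of 21 genes of involution, the regression of the gland after weaning, 14 of 20 tested were lower in αERKO glands than in WT glands with DMBA and 1 higher, where 14.1% of all probes tested were lower and 11.7% higher. Against WT glands without DMBA, 10 of 21 were lower and 5 higher, where 20.9% of all probes tested were lower and 15.4% higher. Over 24 against 10 days in WT glands, 4 of 20 were lower and 1 higher, where 6.34% of all probes tested were lower and 6.05% higher. The genes lower at 24 days included Mmp3, a matrix protease (7.59-fold), and Igfbp5, an insulin-like growth factor binding protein (3.28-fold), where Csn2 was 106-fold higher. Of ion and nutrient transporters of milk secretion, 2 of 10 tested were higher at 24 days and 0 lower, beside 6.05% and 6.34% of all probes. In αERKO glands against WT with DMBA 4 of 10 were lower and 1 higher, beside 14.1% and 11.7% of all probes. Folr1, a folate receptor, was 5.93-fold lower there.

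**Figure D5:**
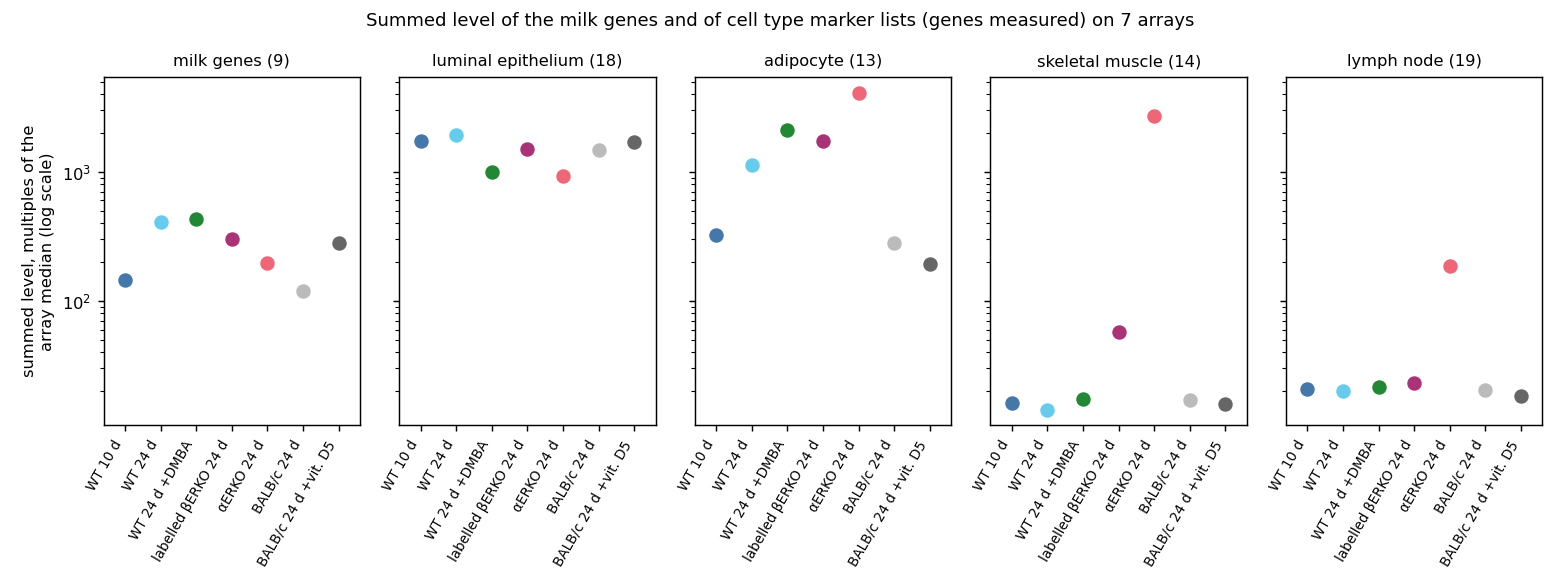
Summed level (y axis, multiples of the array median, log scale) of the 9 milk genes and of marker lists of luminal epithelium, adipocytes, skeletal muscle and lymph node (panels, with the number of genes measured) on 7 arrays (x axes, 1 point per array, no error bars). Luminal sums lie between 920 and 1927, while the αERKO array stands apart at 2700 for muscle and 186 for lymph node.

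The genes most like the caseins were sought among 6990 named genes that were good on at least 3 arrays and ranged over at least 1 log2 unit. By Pearson correlation with the mean log2 level of the 5 caseins over the 7 arrays, the first 5 were Tent5b (0.947), Fsd1l (0.944), Gdpd2 (0.942), Ly9 (0.940) and Pkig (0.933). Each was lowest on the αERKO array, where Fsd1l was not good, and highest in WT glands with DMBA. Fsd1l, from -1.41 to -0.40, and Ly9, from -0.85 to 0.39, were dim throughout. Tent5b ranged from 0.87 to 3.49 and Pkig, an inhibitor of protein kinase A, from 3.13 to 4.42. A ranking for Csn2 alone, added after its values were seen, placed Fkbp5 first, with a correlation of 0.965. For Glycam1 alone, ranked likewise after its values were seen, Ocm, a calcium-binding protein, came first at 0.996, from 3.30 in BALB/c glands with vitamin D5 to 5.16 on the αERKO array. These are descriptions over 7 single arrays that differ in strain, genotype, time and treatment, and for Glycam1 the αERKO array lay 4.55 above the next.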

How the data were processed

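RNA of cultured mouse mammary glands was hybridized by the authors to 1-colour CodeLink arrays and quantified with CodeLink Expression Analysis software. The deposited intensity of a spot is its mean signal less its local background, and the deposited spot flags call it good or not. The series table, whose rows are not named, was not used, and no genome build is given in the sources used here. Intensities of 34967 gene probes were divided by the array median, as in the study's methods, and log2 was taken, with the smallest positive value of the array put in place of values at or below 0. The median intensity was 39.1 to 53.0 over a local background of 80 to 83, so dim spots are imprecise, and the precision of every ratio is limited by the number of arrays. RefSeq (GRCm38.p6) named 14760 of 15553 probes with a RefSeq accession. Where a gene had several probes, the one brightest on average over the arrays (log2) stands for it.

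Arrays were compared in 7 pairs by a 2-fold threshold among probes whose spot was good on either array. A ratio with 1 spot not good is a bound, against the higher of the dim array's lowest good value and the spot's own value. The genes named are the 10 milk genes, up to 5 genes of each list with the largest ratio among probes good on both arrays, Prlr, Stat5a, Elf5 and Nr3c1, and the 5 genes most like the caseins; Esr1 and Esr2 check the labels, and any other gene was named after its values were seen. The members, and the 12 gene lists, written by hand, were chosen with earlier results of these data known. Across the lists 8 genes stand on more than 1, among them Muc1 on the luminal list and Cd14 and Lyz2 on that of macrophages. Clu, Lcn2 and Saa3 stand both on the list of other secreted milk proteins and on that of involution. The counts of these lists are therefore not independent. Alternatives were scaling to the 75th percentile, quantile normalization, normexp with an offset of 50, the deposited normalized intensity, the mean over probes, probes good on both arrays, 1.5-fold and 3-fold thresholds and, chosen after seeing the data, another WT control. The counting was tested on simulated data, with shifts set well past the threshold at good spots, which checks the code and not the calls made here. Python 3.11.15 with pandas 2.3.3 and numpy 2.4.6, and R 4.3.3 with limma 3.58.1, were used.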

Additional observations from a re-analysis of the deposited data

How the results depend on the processing

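No paired analysis was possible because each group has 1 array and no replicate numbers, and for the same reason no array could be left out. The counts and medians of milk genes gave 118 alternative values, of which 110 stayed close to the first and 8 moved, none of them a called value that changed sign. By threshold, the count over 24 against 10 days went from 3 to 5 at 1.5-fold, the count with against without DMBA from 4 to 1 at 3-fold, and the count with vitamin D5 from 4 to 2 at 3-fold. After normexp with an offset of 50, the vitamin D5 count was 2 and the median of αERKO against WT with DMBA was -0.76 in place of -2.05. Over the genes good on both arrays only, that median was -0.44, since Csn2 and Lalba drop out. With WT without DMBA as the control, the count on the array labelled βERKO was 3 in place of 5. The median of BALB/c against WT was 0.04 after quantile normalization in place of -0.29. Of 62 gene ratios, normexp ended 6 calls, quantile normalization and the 75th percentile 1 each (Lalba with vitamin D5), and none turned. Scaling to the 75th percentile moved the median of all probes by 0.13 for αERKO against WT with DMBA, 0.18 between the knockouts, 0.22 for BALB/c against WT and -0.13 for vitamin D5.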
